A study of Mus musculus with 6 samples.

Results

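The miR-30 family was read from liver small RNA libraries of 6 ICR mice, 3 of the J group and 3 of the M group. ICR is an outbred stock, and the labels give all 6 mice as wild type and 30 weeks of age. Every mouse was on high-fat diet (HFD) for 12 weeks before 8 weeks of gavage, with JTXK granule, a compound of Chinese herbs, in the J group and with sterile water in the M group, and the diet went on during gavage. Both groups are therefore HFD-fed, and mice on standard diet were not analysed here. The family was taken by name as 10 mature miRNAs, 6 of the 5p arm (mmu-miR-30f, whose name gives no arm, was put with them) and 4 of the 3p arm, out of 1039 rows in the table. All 10 were found. 2 further 3p arms of miR-30 hairpins, mmu-miR-30b-3p and mmu-miR-30c-1-3p, were in the table and were used only where an arm or a neighbour was needed.

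A miRNA is cut from a hairpin as a duplex of a 5p and a 3p strand, and one strand usually stays in the Argonaute protein and guides it to mRNAs. Pairing rests mainly on the seed, bases 2 to 8 of the mature strand, so miRNAs with one seed form a family with overlapping targets. The miR-30 family is broadly expressed, is abundant in liver and is known for roles in epithelial differentiation, autophagy and lipid metabolism.

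The mature sequences, which show which members share a seed and how little the abundant members differ, are given below from RefSeq (GRCm38.p6) from 5′ to 3′, with the seed in capitals. A sequence was matched for 8 of the 12 rows, and mmu-miR-30b-5p, mmu-miR-30b-3p, mmu-miR-30d-5p and mmu-miR-30d-3p are named only.
mmu-miR-30a-5p: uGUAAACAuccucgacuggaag
mmu-miR-30e-5p: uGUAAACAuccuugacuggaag
mmu-miR-30c-5p: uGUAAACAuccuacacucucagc
mmu-miR-30f: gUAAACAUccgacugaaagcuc
mmu-miR-30a-3p: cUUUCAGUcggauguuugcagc
mmu-miR-30e-3p: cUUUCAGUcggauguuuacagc
mmu-miR-30c-2-3p: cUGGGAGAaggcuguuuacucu
mmu-miR-30c-1-3p: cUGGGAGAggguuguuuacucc

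The seed GUAAACA was shared by mmu-miR-30a-5p, mmu-miR-30c-5p and mmu-miR-30e-5p. Among the 1679 mature mouse miRNAs whose sequence was at hand, a set that is not complete, the one other with this seed at bases 2 to 8 was mmu-miR-384-5p, which has no row under that name in the table, and the miRNAs that are named only were not searched. The 3p arms formed 2 other seed groups, UUUCAGU in mmu-miR-30a-3p and mmu-miR-30e-3p and UGGGAGA in mmu-miR-30c-2-3p and mmu-miR-30c-1-3p. In mmu-miR-30f the letters GUAAACA begin at base 1, so its seed by position is UAAACAU. mmu-miR-30a-5p and mmu-miR-30e-5p differed by the single substitution C13U, with positions counted from 1 at the 5′ end of mmu-miR-30a-5p, and mmu-miR-30a-3p and mmu-miR-30e-3p by the single substitution G18A. How reads that match more than one of them were assigned is not given in the sources used here, so the rows of such pairs may share reads. Strands that are named only were not compared by sequence, so whether their rows share reads in the same way is not known.

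The genes form 3 clusters (positions in GRCm38, from the GENCODE annotation). Mir30a (chromosome 1, 23272269 to 23272339) and Mir30c-2 (chromosome 1, 23291701 to 23291784) lie on the plus strand with 19361 bases between them, and Mir30c-2 lies in an exon of the long noncoding RNA Gm27028. Mir30e (chromosome 4, 120772606 to 120772697) and Mir30c-1 (chromosome 4, 120769534 to 120769622) lie 2983 bases apart on the minus strand, both in introns of Nfyc, which encodes a subunit of the transcription factor NF-Y. Mir30b (chromosome 15, 68337415 to 68337510) and Mir30d (chromosome 15, 68341208 to 68341289) lie 3697 bases apart on the minus strand, Mir30d in an exon of the long noncoding RNA Gm20732. The 5p strand of Mir30c-1 and of Mir30c-2 is the same sequence, so mmu-miR-30c-5p sums 2 clusters and only the 3p strands tell them apart.

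Mir30f has the same range as Mir30e on the opposite strand. Bases 1 to 19 of mmu-miR-30f are the exact reverse complement of bases 1 to 19 of mmu-miR-30e-3p. The row of mmu-miR-30f carries the position range 19 to 1, written backward, as do 42 of the 619 mouse rows that carry a range. What a backward range means is not stated in the sources used here. The strands mmu-miR-30f and mmu-miR-30e-3p are different sequences, so the overlap of their positions alone does not mix their reads. Whether a row with a backward range holds reads of the named strand is not known, so the values of mmu-miR-30f are given as uncertain.

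Levels are reads of a miRNA in 1000000 miRNA reads of its library (RPM), and the libraries held 2626353 to 4314134 miRNA reads. The hepatocyte list was checked against the liver label, and its 5 miRNAs, mmu-miR-122-5p and mmu-miR-192-5p among them, were all detected and together made up 329507 to 380650 RPM. M group replicate 1 stood apart from the rest, with a mean Pearson correlation of log2(RPM + 1) across miRNAs of 0.937 with the other 5 libraries, against 0.969 to 0.974 for each of the others. Its column name also has another prefix (MX1) than those of the other M libraries (MX2), and the meaning of the prefix is not given in the sources used here. Several values below are therefore given also without it. The J and M libraries are separate mice, and whether the replicate numbers pair them is not stated.

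The 10 members took 5.04% to 5.39% of the miRNA reads in the M libraries and 6.74% to 8.62% in the J libraries. mmu-miR-30a-5p was the sixth most abundant miRNA of the liver and alone made up 53.6% to 66.9% of the reads of the family. The order of the levels was the same in every library at each step, mmu-miR-30a-5p (mean of the 6 libraries 37391 RPM), mmu-miR-30e-5p (12036 RPM), mmu-miR-30d-5p (7534 RPM), mmu-miR-30c-5p (4078 RPM), mmu-miR-30a-3p (829.7 RPM), mmu-miR-30b-5p (649 RPM), mmu-miR-30e-3p (386 RPM), mmu-miR-30c-2-3p (165 RPM), mmu-miR-30d-3p (45.0 RPM) and mmu-miR-30f (9.49 RPM). Over all libraries the ranges of mmu-miR-30e-5p and mmu-miR-30d-5p overlapped, as did those of mmu-miR-30d-5p and mmu-miR-30c-5p. The mature strands are 22 or 23 bases long, so reads were not divided by length.

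**Figure D1:**
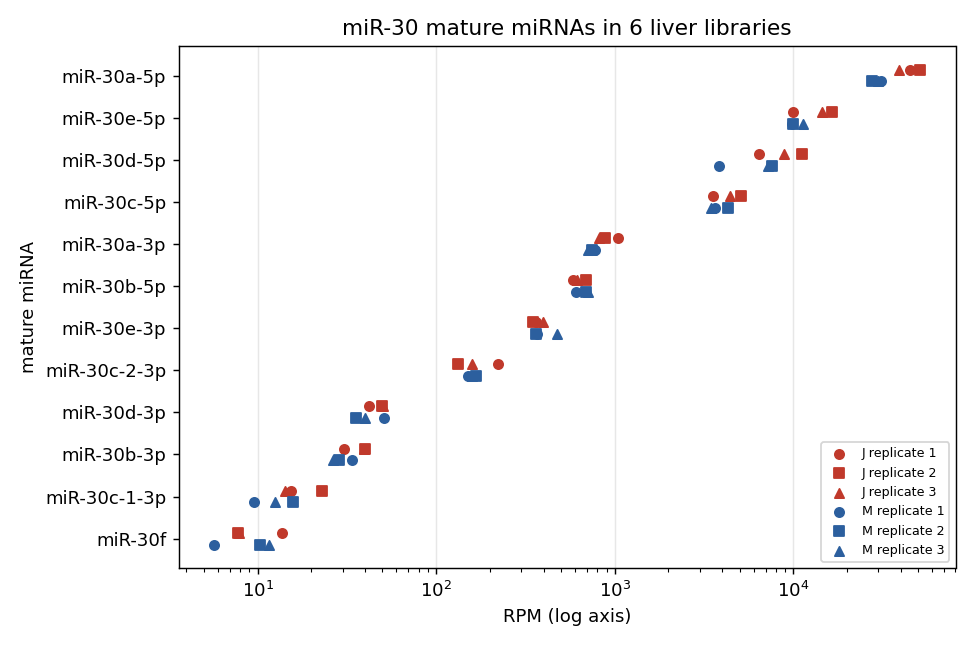
RPM on a log axis of the 10 members and of mmu-miR-30b-3p and mmu-miR-30c-1-3p, with 1 point per library (red, J group; blue, M group; the marker gives the replicate). The rows span 5.71 RPM for mmu-miR-30f in M group replicate 1 to 51385 RPM for mmu-miR-30a-5p in J group replicate 2, and the groups are separate for mmu-miR-30a-5p and mmu-miR-30a-3p alone among these rows, as they are for 13.5% of the miRNAs tested.

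mmu-miR-30a-5p was 1.53-fold higher in the J group and was the only member past the thresholds in the main limma fit. Under other settings of limma other members also passed, as given below. The means of the 9 other members were 0.919-fold (mmu-miR-30e-3p) to 1.41-fold (mmu-miR-30d-5p) those of the M group. The difference between the groups was fitted with limma on log2(RPM + 1), a linear model whose variances borrow from all miRNAs, for the 548 miRNAs whose mean exceeded 1 RPM in the J or the M group, and all 10 members were among them. The thresholds were those of the study, an absolute log2 fold change above 0.3 with an unadjusted p under 0.05. mmu-miR-30a-5p is among the miRNAs the study selected on these same libraries, so its difference is not independent evidence. Of the 10 members 1 passed, and it was higher in the J group, where 1.46% of the miRNAs tested passed in that direction, 3.83% in the other and 5.29% in either. On the recovered reads edgeR called 2 members, mmu-miR-30a-5p and mmu-miR-30e-5p, both higher in the J group, and 8.21% of all miRNAs (3.28% higher and 4.93% lower). 8 of the 10 had a log2 fold change above 0, as did 41.1% of the miRNAs tested. The median was 0.18 over the 10 members and -0.13 over all miRNAs tested. No miRNA had a Benjamini-Hochberg adjusted p under 0.05 in limma (29 had an unadjusted p under 0.05) or in edgeR (45 unadjusted), while DESeq2 gave 2 such miRNAs, neither of them a member.

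**Figure D2:**
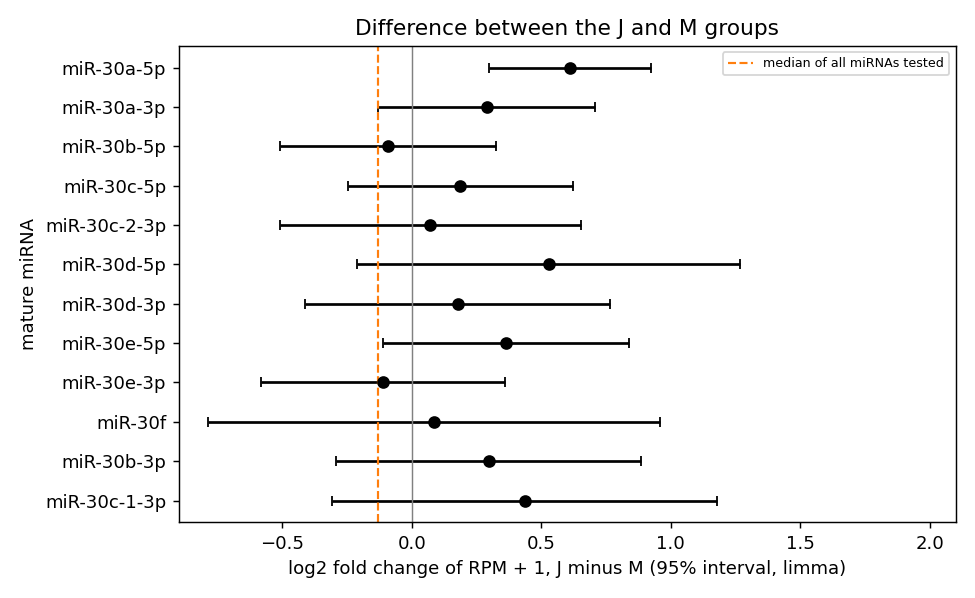
Log2 fold change of RPM + 1 (J minus M) with its 95% interval from limma for the 10 members and for mmu-miR-30b-3p and mmu-miR-30c-1-3p, with the median of the 548 miRNAs tested (-0.13) as a dashed line. The interval lies wholly above 0 for mmu-miR-30a-5p (0.30 to 0.92) and spans 0 in every other row.

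Of the guide strands, mmu-miR-30a-5p had 45099, 51385 and 39343 RPM in J group replicates 1, 2 and 3, against 31131, 27669 and 29722 RPM in M group replicates 1, 2 and 3. The lowest J library was above the highest M library, as was the case for 4.20% of the miRNAs tested, while 9.31% had all J libraries below the M libraries. The means were 45276 ± 6023 RPM (SD, n = 3) and 29507 ± 1741 RPM (SD, n = 3), and the difference of 0.61 on the log2 scale (standard error 0.13, 95% interval 0.30 to 0.92) passed the thresholds, with a Benjamini-Hochberg adjusted p = 0.42 in limma. Without M group replicate 1 it was 0.65, and over all 18 other settings it stayed between 0.37 and 0.74, with adjusted p from 0.083 (DESeq2) to 0.83 (limma without J group replicate 2). The 0.37 came from quantile normalization (limma, adjusted p = 0.75), where the median of all miRNAs was 0.08 and mmu-miR-30a-5p did not pass.

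mmu-miR-30e-5p, which differs from it at base 13, had 10014, 16451 and 14519.6 RPM in the J libraries against 9807, 10020.4 and 11404 RPM in the M libraries. J group replicates 2 and 3 were above all M libraries, and J group replicate 1 lay among them. The log2 fold change was 0.36 (95% interval -0.11 to 0.84, adjusted p = 0.71 in limma), 0.32 without M group replicate 1 and 0.22 without J group replicate 2. It passed the thresholds without J group replicate 1 (0.57, limma, adjusted p = 0.65) and on the reads with edgeR (0.48, adjusted p = 0.57), with DESeq2 (0.49, adjusted p = 0.66) and after median-of-ratios scaling (0.47, limma, adjusted p = 0.73).

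mmu-miR-30d-5p had 6435, 11156 and 8895 RPM in the J libraries against 3852, 7615 and 7253 RPM in the M libraries. The groups overlapped, with J group replicate 1 below M group replicates 2 and 3 and with M group replicate 1 far below every other library. The log2 fold change was 0.53 (95% interval -0.21 to 1.27, adjusted p = 0.71 in limma), and it was 0.21 without M group replicate 1, the library that stands apart, 0.34 without J group replicate 2 and 0.79 with quantile normalization. The row name of mmu-miR-30d-5p also carries a substitution tag, whose meaning is not given in the sources used here.

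mmu-miR-30c-5p had 3576, 5093 and 4397 RPM in the J libraries against 3641, 4315 and 3448 RPM in the M libraries, an overlapping pair of ranges. Its log2 fold change was 0.19 (95% interval -0.25 to 0.62), 0.16 without M group replicate 1, from 0.07 (J group replicate 2) to 0.32 (J group replicate 1) over all libraries left out in turn and 0.46 after quantile normalization. The least abundant of the 5p guide strands besides mmu-miR-30f, mmu-miR-30b-5p, had 582, 691 and 612 RPM in the J libraries against 611, 692 and 706 RPM in the M libraries. Its ranges almost coincided, its log2 fold change was -0.09 (95% interval -0.51 to 0.32) and -0.16 without M group replicate 1, and its direction turned with edgeR (0.01), DESeq2 (0.02), median-of-ratios scaling (0.01) and quantile normalization (0.23). mmu-miR-30f was read 59, 28 and 22 times in J group replicates 1 to 3 and 15, 35 and 50 times in M group replicates 1 to 3, or 9.78 ± 3.38 and 9.20 ± 3.10 RPM (SD, n = 3), and no difference was detectable at this depth and spread.

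Among the 3p strands, mmu-miR-30a-3p had 1046, 887 and 812 RPM in the J libraries against 779, 742 and 713 RPM in the M libraries. All J libraries were above all M libraries, by a narrow margin between 812 and 779 RPM. The log2 fold change was 0.29 (95% interval -0.13 to 0.71, adjusted p = 0.71 in limma), 0.32 without M group replicate 1 and 0.19 without J group replicate 1. With quantile normalization it was 0.52 and passed the thresholds (limma, adjusted p = 0.75). mmu-miR-30c-2-3p had 221, 133 and 159 RPM against 151, 168 and 159 RPM, so the J libraries held both the highest and the lowest value. Its log2 fold change of 0.07 turned to -0.13 without J group replicate 1 and was 0.30 with quantile normalization.

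mmu-miR-30e-3p had 363, 347 and 399 RPM in the J libraries against 366, 364 and 477 RPM in the M libraries, a log2 fold change of -0.11 (95% interval -0.58 to 0.36) that turned with quantile normalization (0.23) and without M group replicate 3 (0.02). mmu-miR-30d-3p, a rare strand, had 42.2, 50.0 and 50.6 RPM against 51.4, 35.8 and 39.8 RPM, a log2 fold change of 0.18 (95% interval -0.41 to 0.77) that was 0.07 without M group replicate 2, 0.32 without M group replicate 1 and 0.44 with quantile normalization. Both pairs of groups overlapped, and neither passed the thresholds in limma. mmu-miR-30b-3p and mmu-miR-30c-1-3p, outside the 10 members, had log2 fold changes of 0.30 and 0.44 with overlapping groups and did not pass either, and that of mmu-miR-30c-1-3p was 0.24 without J group replicate 2 and 0.26 without M group replicate 1. With quantile normalization the log2 fold changes of mmu-miR-30b-3p and mmu-miR-30c-1-3p were 0.53 and 0.52.

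Summed over the 10 members, the J libraries had 67391, 86202 and 69195 RPM and the M libraries 50394, 51632 and 53932 RPM. The sum was 1.43-fold higher in the J group (74263 against 51986 RPM), and most of the difference between the means came from mmu-miR-30a-5p. The 5 other 5p members together had 20620.1, 33400.0 and 28432 RPM in the J libraries against 17917, 22653 and 22822 RPM in the M libraries. J group replicate 1 lay among the M libraries there, and the groups overlapped. The 4 3p members together had 1672, 1417 and 1420.2 RPM against 1347, 1309.9 and 1388 RPM, with the J libraries above the M libraries by a narrow margin (0.15 on the log2 scale, and 0.07 without J group replicate 1). These sums are descriptions and carry no test.

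Whether the rest of the family followed mmu-miR-30a-5p was looked at with ratios within a library, which no factor applied to a whole library can change. 16 ratios were compared by exact two-sided permutation tests, for which 3 libraries against 3 cannot give a p below 0.1, and the smallest Benjamini-Hochberg adjusted p over the 16 was 0.32. mmu-miR-30a-5p had 77.5, 74.3 and 64.2 times the reads of mmu-miR-30b-5p in the J libraries against 50.9, 40.0 and 42.1 times in the M libraries. The J ratios were all higher, by 0.70 on the log2 scale (exact permutation p = 0.1, adjusted p = 0.32), and the difference stayed between 0.63 and 0.81 with any library left out but was 0.14 after quantile normalization, which does not keep ratios (exact permutation p = 0.7). The ratio to mmu-miR-30c-5p was 12.6, 10.1 and 8.95 in the J libraries against 8.55, 6.41 and 8.62 in the M libraries, again with every J library higher (0.42 on the log2 scale, exact permutation p = 0.1, adjusted p = 0.32), but quantile normalization turned it to -0.095. As background, mmu-miR-30a-5p gave such separate groups against 42.9% of the 457 other mouse miRNAs tested that had reads in every library.

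The ratios to mmu-miR-30e-5p and mmu-miR-30d-5p overlapped between the groups. mmu-miR-30a-5p had 4.50, 3.12 and 2.71 times the reads of mmu-miR-30e-5p in the J libraries against 3.17, 2.76 and 2.61 times in the M libraries (0.25 on the log2 scale, exact permutation p = 0.5, adjusted p = 0.62), a difference that was 0.04 without J group replicate 1 and 0.40 without J group replicate 3. It had 7.01, 4.61 and 4.42 times the reads of mmu-miR-30d-5p against 8.08, 3.63 and 4.10 times, a difference of 0.08 (exact permutation p = 0.8, adjusted p = 0.8). That difference turned to -0.13 without J group replicate 1, to -0.14 without M group replicate 2 and to -0.05 without M group replicate 3, and was 0.44 without M group replicate 1, and quantile normalization turned it to -0.42. The ratio to mmu-miR-30f, which rests on few reads, also overlapped (0.51, exact permutation p = 0.3, adjusted p = 0.48, 0.28 to 0.86 with a library left out and 0.18 after quantile normalization). Against the other 5p members summed, the ratio was 2.19, 1.54 and 1.38 in the J libraries against 1.74, 1.22 and 1.30 in the M libraries, a difference of 0.25 on the log2 scale (exact permutation p = 0.4, adjusted p = 0.53) that was 0.40 without M group replicate 1, fell to 0.06 without J group replicate 1 and turned to -0.08 with quantile normalization.

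Likeness to mmu-miR-30a-5p was also ranked over the 137 other mouse miRNAs with a mean of at least 100 RPM, by the root-mean-square difference of the log2(RPM + 1) values over the 6 libraries after centring each miRNA on its mean. The other arm of its own hairpin, mmu-miR-30a-3p, came first (0.21), and of the members mmu-miR-30e-5p came next at rank 7 (0.26), then mmu-miR-30c-5p at rank 13 (0.29). mmu-miR-30b-5p (rank 39), mmu-miR-30c-2-3p (rank 44), mmu-miR-30d-5p (rank 55) and mmu-miR-30e-3p (rank 56) were all farther from it than a profile with no variation between libraries would be (0.33). The 5 closest miRNAs outside the family were mmu-miR-192-5p (0.21), mmu-miR-101b-3p (0.24), mmu-miR-1843b-5p (0.25), mmu-miR-203-3p (0.25) and mmu-miR-340-5p (0.26). Their log2 fold changes were 0.28, 0.26, 0.25, 0.29 and 0.14, and none of the 5 passed the thresholds. The ranking is a description over 6 libraries of 2 groups and carries no test.

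**Figure D3:**
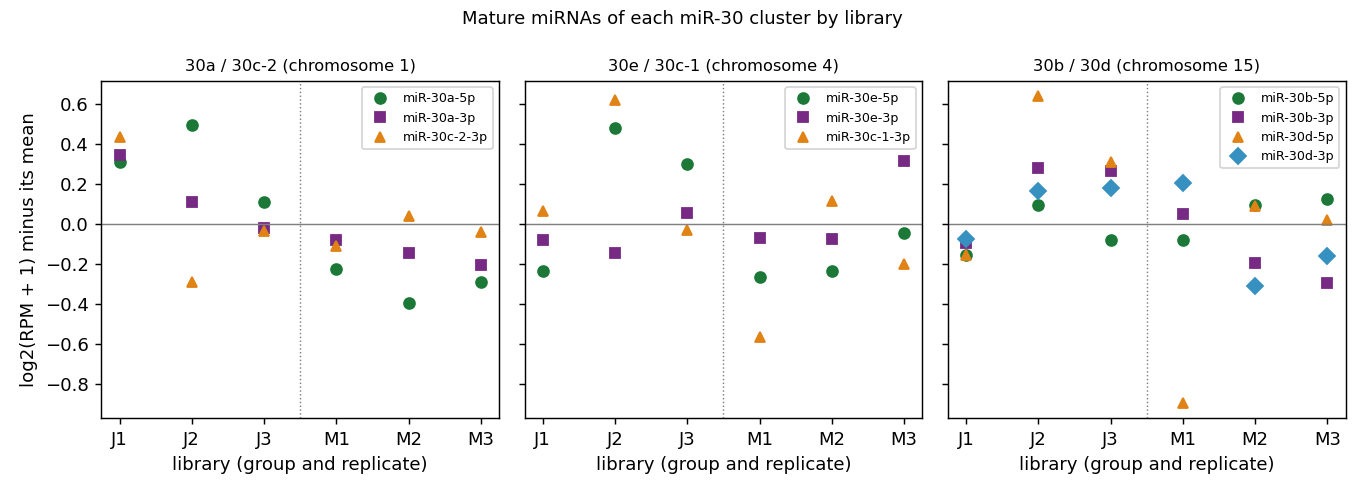
Log2(RPM + 1) minus its mean over the 6 libraries for the strands of the 3 clusters, with 1 point per library (J1 to J3, J group replicates; M1 to M3, M group replicates; the dotted line divides the groups). mmu-miR-30c-5p, which sums 2 clusters, is not drawn. In J group replicate 1 the 3 strands drawn for the chromosome 1 cluster lie above 0, and mmu-miR-30d-5p has its lowest point in M group replicate 1.

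By cluster, the strands of Mir30a and Mir30c-2 did not keep a fixed ratio between libraries. mmu-miR-30a-5p had 204, 386 and 247.5 times the reads of mmu-miR-30c-2-3p in the J libraries against 206, 165 and 187 times in the M libraries (0.54 on the log2 scale, exact permutation p = 0.2, adjusted p = 0.46), a difference that was 0.28 without J group replicate 2 and 0.07 after quantile normalization. mmu-miR-30a-3p and mmu-miR-30c-2-3p, both passenger strands, were both highest in J group replicate 1, but in J group replicate 2 mmu-miR-30c-2-3p had its lowest level while mmu-miR-30a-3p was above all M libraries. Their ratio was 4.43 to 6.66 in the 6 libraries, with overlapping groups (0.22 on the log2 scale, exact permutation p = 0.3, adjusted p = 0.48, and 0.07 to 0.32 with a library left out). The ratio of mmu-miR-30b-5p to mmu-miR-30d-5p, the neighbours on chromosome 15, was 0.0904, 0.0620 and 0.0689 in the J libraries against 0.159, 0.0909 and 0.0974 in the M libraries. Every J library was lower, the closest libraries by very little (0.0904 and 0.0909), with a difference of -0.62 on the log2 scale (exact permutation p = 0.1, adjusted p = 0.32) and of -0.37 without M group replicate 1. No share of such separations was computed for other neighbouring miRNAs. mmu-miR-30e-5p, from the chromosome 4 cluster, had 2.80, 3.23 and 3.30 times the reads of mmu-miR-30c-5p against 2.69, 2.32 and 3.31 times, and the groups overlapped (0.18, exact permutation p = 0.4, adjusted p = 0.53, and -0.20 with quantile normalization). With a library left out that difference was 0.06 (M group replicate 2) to 0.31 (M group replicate 3). Since mmu-miR-30c-5p sums 2 clusters, the ratio is not one within the chromosome 4 cluster. No ratio of mmu-miR-30e-5p to mmu-miR-30c-1-3p was computed.

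For Mir30a, Mir30b, Mir30d and Mir30e, taking the rows as named, the 5p strand was the more abundant arm in every library. The rows of Mir30a and Mir30e may share reads, as given above, so their arm ratios carry that limit. For Mir30b and Mir30d, whose sequences were not at hand, whether the same limit holds is not known. For Mir30a the 5p to 3p ratio was 43.1, 58.0 and 48.5 in the J libraries against 40.0, 37.3 and 41.7 in the M libraries, higher in every J library by 0.32 on the log2 scale (exact permutation p = 0.1, adjusted p = 0.32), though it was 0.21 without J group replicate 2 and quantile normalization turned it to -0.15. For Mir30e it was 27.6, 47.4 and 36.4 against 26.8, 27.5 and 23.9, also higher in every J library, by 0.48 (exact permutation p = 0.1, adjusted p = 0.32), although 27.6 and 27.5 are hardly apart and the difference was 0.28 without J group replicate 2 and 0.04 after quantile normalization. Of the 119 mouse hairpins with both arms tested and read in every library, 5.88% had every J ratio above every M ratio and 10.9% had groups that did not overlap.

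The other hairpins did not share this. For Mir30d the arm ratio was 152.5, 223 and 176 in the J libraries against 74.9, 213 and 182 in the M libraries, with M group replicate 1 far below the others, and the log2 difference of 0.35 (exact permutation p = 0.7, adjusted p = 0.8) turned to -0.12 without that library. For Mir30b it was 19.0, 17.3 and 15.5 against 18.0, 24.3 and 26.6, overlapping and with the opposite sign (-0.40, exact permutation p = 0.2, adjusted p = 0.46). mmu-miR-30c-5p had 16.2, 38.3 and 27.7 times the reads of mmu-miR-30c-2-3p against 24.1, 25.7 and 21.7 times, and 234, 222.5 and 308 times those of mmu-miR-30c-1-3p against 382.5, 273 and 274 times. Neither pair was separate (exact permutation p = 0.8 and p = 0.3, adjusted p = 0.8 and 0.48), and since its reads come from both genes these are not arm ratios of 1 hairpin.

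**Figure D4:**
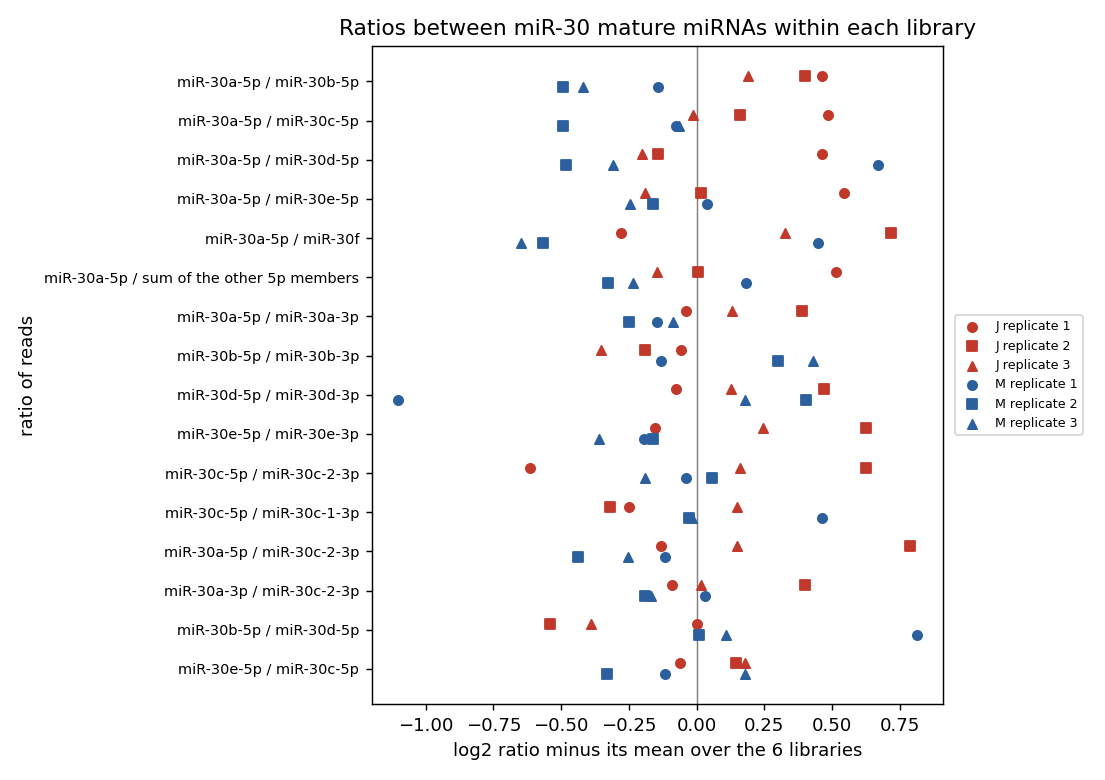
Log2 of the 16 ratios, each minus its mean over the 6 libraries, with 1 point per library (red, J group; blue, M group; the marker gives the replicate). The groups are separate in 5 of the 16 ratios, those of mmu-miR-30a-5p to mmu-miR-30b-5p, to mmu-miR-30c-5p and to its own 3p arm, of mmu-miR-30e-5p to its 3p arm and of mmu-miR-30b-5p to mmu-miR-30d-5p. Such separation, with the J group higher, was also seen for 42.9% of the ratios of mmu-miR-30a-5p to other miRNAs and for 5.88% of the arm ratios of mouse hairpins.

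Lists of cell type markers were read in the same libraries, and they carry no test as lists. The 7 miRNAs listed for blood-derived immune cells summed to 988 to 1370.0 RPM in the J libraries and 1768 to 6579 RPM in the M libraries, the highest in M group replicate 1, without which the M libraries held 1768 and 2306 RPM. All 7 had a log2 fold change below 0, where 41.1% of the miRNAs tested lay above it, and mmu-miR-146a-5p (-1.79) and mmu-miR-342-3p (-1.79) passed the thresholds, as did 3.83% of the miRNAs tested in that direction. Of the 4 stromal miRNAs tested, mmu-miR-199a-5p, mmu-miR-214-3p and mmu-miR-145a-5p were lower and passed, and the list summed to 12582 to 16890 RPM in the J libraries and 16765 to 25242 RPM in the M libraries. In bulk liver, fewer cells of a type and less RNA per cell cannot be told apart, and the part of these groups in the differences of the miR-30 members was not tested. The lists for hepatocytes (5 tested), red blood cells (3 tested), endothelial cells (1 tested) and bile duct epithelium (5 tested) held no miRNA that passed, with median log2 fold changes of 0.00, -0.12, 0.09 and -0.68. Of the 14 miRNAs listed for hepatic insulin and lipid control, which include mmu-miR-103-3p, mmu-miR-107-3p and, as the hepatocyte list does, mmu-miR-122-5p, 0 passed, 13 lay below 0 and the median was -0.20, beside a median of -0.13 and 5.29% passing over all miRNAs tested.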

How the data were processed

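Small RNA of each liver was sequenced by the authors, who matched the filtered unique reads to Rfam and miRBase and deposited RPM (the reads of a miRNA in 1000000 miRNA reads of its library) in 6 columns, 1 per mouse. The submitters' processing notes name the build mm9, and no aligner, mismatch rule or rule for shared reads is given in the sources used here. The table holds no coordinates. Each column sums to 1000000, and 100% of the values equal a whole number of reads (within 0.01 read), so whole reads were recovered. A count of 3 reads equals 0.695 to 1.14 RPM. Among the 10 members, counting error relative to the level was widest for mmu-miR-30f and mmu-miR-30d-3p, with a 95% Wilson interval of 30.0 to 42.7 RPM for 35.8 RPM in M group replicate 2 for the latter, while the lowest library of mmu-miR-30f had an interval of 3.46 to 9.42 RPM for 5.71 RPM. Intervals cover counting error only.

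log2(RPM + 1) was fitted with limma 3.58.1 in R 4.3.3 (variance trend, two-sided) over the miRNAs with a mean above 1 RPM in a group, with Benjamini-Hochberg adjustment over all of them. For the miRNA comparison the methods name the thresholds but no test. Alternatives were added values of 0.1 or 10 RPM, no filter or one at 10 RPM, other scalings, the recovered reads in edgeR 4.0.16 or DESeq2 1.42.0, a replicate term, mouse names alone and each library left out. Ratios used exact permutation tests (scipy 1.17.1). The fit was run on simulated data whose changed miRNAs had a mean above 10 RPM and differed by 1 on the log2 scale. No member differed by that much here, so the simulation does not show how well smaller differences are found. The text names the 10 members, the other miR-30 strands, miRNAs with the same seed, the 5 most alike and lists of markers. The members and lists were chosen with earlier results of these data known.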

Additional observations from a re-analysis of the deposited data

How the results depend on the processing

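Over all miRNAs tested, 29 passed (8 up and 21 down in the J group), 45 passed with edgeR (18 higher, 27 lower), and 21 to 45 did with a library left out (45 without M group replicate 2, of which 38 were lower). The split was 20 higher and 11 lower under quantile normalization, 17 and 13 under median-of-ratios scaling and 13 and 17 with RPM over the reads outside the miR-30 family, and the median of all log2 fold changes ranged from -0.20 to 0.08 over the settings. mmu-miR-30a-5p passed under 17 of 18 settings and not after quantile normalization (0.37). Quantile normalization put mmu-miR-30a-3p past the thresholds (0.52) and turned the ratios of mmu-miR-30a-5p to mmu-miR-30c-5p (-0.095), to mmu-miR-30d-5p (-0.42), to the other 5p members summed (-0.076) and to mmu-miR-30a-3p (-0.15), the ratio of mmu-miR-30e-5p to mmu-miR-30c-5p (-0.20), and the fold changes of mmu-miR-30b-5p (0.23) and mmu-miR-30e-3p (0.23). mmu-miR-30b-5p also turned with median-of-ratios scaling (0.014), edgeR (0.0083) and DESeq2 (0.015). mmu-miR-30e-5p passed with median-of-ratios scaling (0.47), edgeR (0.48) and DESeq2 (0.49). The summed 3p members went from 0.15 to 0.26 (log2) with median-of-ratios scaling and to 0.07 without J group replicate 1. The cause of these changes was not tested. With a library left out, the fold change ranged from 0.22 to 0.57 for mmu-miR-30e-5p, from -0.13 to 0.24 for mmu-miR-30c-2-3p, from -0.18 to 0.016 for mmu-miR-30e-3p and from -0.19 to 0.27 for mmu-miR-30f, and the ratio differences from -0.14 to 0.44 for mmu-miR-30a-5p to mmu-miR-30d-5p, from -0.12 to 0.64 for the arms of Mir30d and from -0.17 to 0.45 for mmu-miR-30c-5p to mmu-miR-30c-2-3p. The replicate block gave 27 miRNAs in all and put mmu-miR-30d-5p past the thresholds (0.53, limma, adjusted p = 0.72), but the numbers are not known to pair the mice. The deviations of same-numbered libraries from their group means correlated at r = -0.0059 to 0.058 across miRNAs, and only those of replicate 2 matched their own number best. It changed no other call among the members. With 3 libraries a group, the permutation tests of the ratios could not pass 0.05.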
